A study of Mus musculus with 3 samples.

Results

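Periportal hepatocytes, the liver cells that line the incoming blood vessels, were compared across 3 diets in mouse single-cell RNA sequencing libraries. The cells were chosen by a zonation score and carry no label of their own in the files. A barcode entered when it had at least 500 detected genes, at most 50% mitochondrial counts and 0 molecules of Glul, the glutamine synthetase of the innermost central cells. Its score was the sum of ln(1 + counts per 10000) over the pericentral genes Cyp2e1, Oat, Rgn and Cyp2c50 minus the same sum over the periportal genes Cyp2f2, Sds, Hal and Ass1. The lowest 20% of scores within each library were taken as periportal, which gave 270 cells on normal diet, 236 on high fat diet and 331 on high fat diet with hyodeoxycholic acid, 837 of 16918 barcodes in all.

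Blood enters the liver lobule at the portal tract and leaves at the central vein, and hepatocytes along this path divide their work. Periportal cells receive the most oxygen and nutrients and are known for urea synthesis, gluconeogenesis, amino acid breakdown and secretion of plasma proteins. Pericentral cells, under Wnt signals from the central vein, are known for glutamine synthesis, bile acid synthesis and drug metabolism. E-cadherin, the junction protein encoded by Cdh1, is a classical marker of periportal hepatocytes.

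All mice were wild type. For 12 weeks they ate normal diet (ND), a diet with 60% high fat (HFD), or that fat-rich diet containing 0.25% of a bile acid, hyodeoxycholic acid (HFD_HDCA). Hepatocytes were freed by collagenase perfusion and sequenced with a droplet 3′ kit, which counts each captured molecule once through a unique molecular identifier (UMI). Each diet had 1 library. There were therefore no replicates, no p-value was computed, the differences have no replicate check, and every interval below is a 95% interval that covers counting error only. The labels do not state how many mice a library pools, their sex or age, or the hour of isolation.

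The deposited matrices held 4873 to 6290 barcodes and 7593447 to 8753465 UMIs per library, of which 1180 to 1658 cells per library passed the 3 filters. Between 6 and 16 barcodes were shared by each pair of libraries, and 1 shared barcode lay among periportal cells. Doublets were not removed. The periportal cells had medians of 4068 in ND, 2995.5 in HFD and 5383 UMIs in HFD_HDCA, with 13.0 to 14.2% mitochondrial counts. Their summed nuclear-encoded counts were 940645, 597647 and 1453692, and levels are given as counts per 1000000 of these sums (CPM). Counts of molecules at the 3′ end were not divided by gene length, so CPM is compared between libraries and not between genes.

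The 3 score distributions differed in shape, so the same 20% did not reach the same depth of the scale. The score reached down to -11.85 in ND, to -12.45 in HFD and to -12.75 in HFD_HDCA. The last cell inside the class and the first outside stood at -8.28 and -8.27 in ND, at -7.71 and -7.70 in HFD, and at -5.41 and -5.41 in HFD_HDCA. Within 0.5 of this boundary lay 69 ND, 43 HFD and 30 HFD_HDCA cells inside and 72, 34 and 27 outside. The class is thus a range of a continuous score, widest on the scale in HFD_HDCA, and not a separate cell type. Single thresholds over the pooled cells, which took 391 ND, 265 HFD and 182 HFD_HDCA cells instead, were run for every result, and their values are given beside the single-gene ratios printed below where they end a 2-fold call or move it by over 1.5 times.

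**Figure D1:**
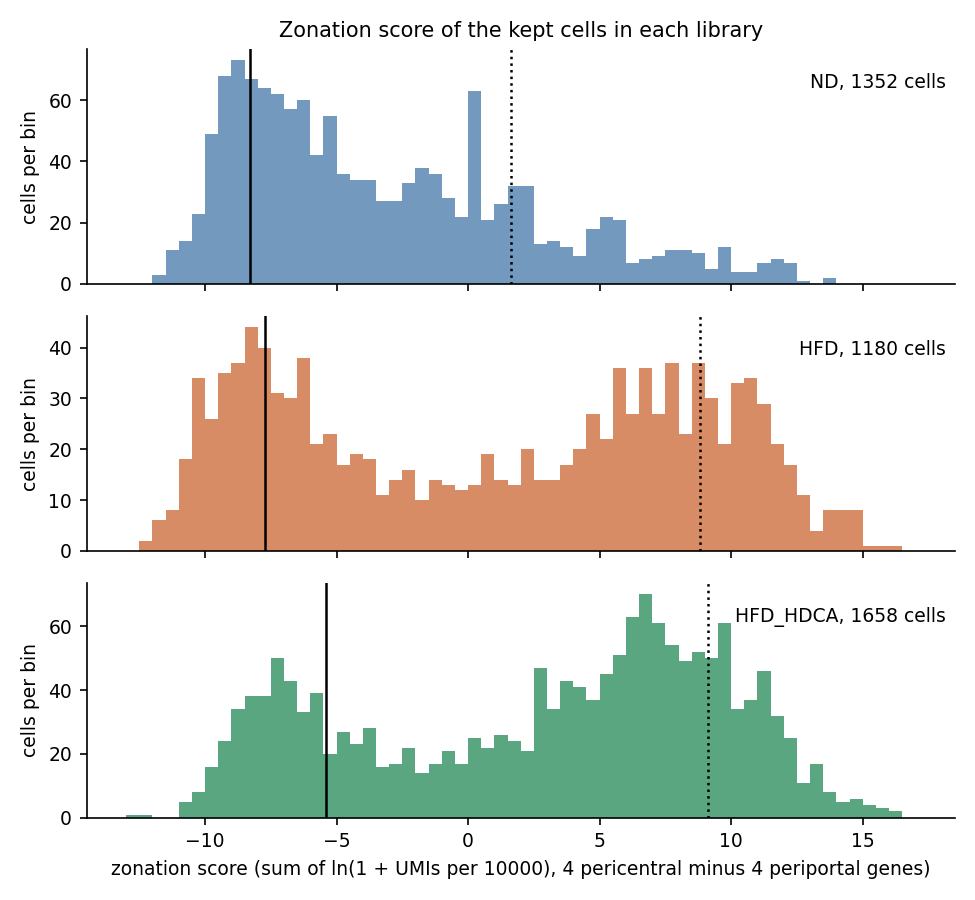
Histograms of the zonation score (x axis, sum of ln(1 + UMIs per 10000) of 4 pericentral minus 4 periportal genes; y axis, cells per bin of 0.5) of the kept cells of each library. The solid line is the upper edge of the periportal class (-8.28, -7.71 and -5.41) and the dotted line the lower edge of the pericentral class (1.64, 8.83 and 9.11), so the ND distribution sits furthest to the left.

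The 8 score genes chose the cells, and their levels are given as a description only. Cyp2f2, a cytochrome P450 of portal cells, stood at 2700.3 in ND, 2501 in HFD and 948 CPM in HFD_HDCA. Sds, which breaks down serine, stood at 407, 731 and 562 CPM. Hal, which breaks down histidine, stood at 919.6, 812 and 585 CPM. Ass1, a urea cycle enzyme, stood at 2989, 3440.2 and 3646 CPM. Cyp2f2 and Hal were thus lowest in HFD_HDCA while Ass1 was highest there. On the pericentral side, Cyp2e1 was at 23.4, 45.2 and 95.6 CPM, Oat at 5.32, 21.8 and 42.0 CPM, Rgn at 26.6, 132 and 106 CPM and Cyp2c50 at 42.5, 15.1 and 30.3 CPM. The median periportal cell of each library held 0 counts of all 4 of these pericentral genes.

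Cdh1, the marker that the score did not use, was higher at the portal end in each library but far lower in HFD_HDCA than in the other libraries. Cdh1 (ENSMUSG00000000303, mm10 chromosome 8, 106603351 to 106670246, plus strand) gave 120 counts in ND, 67 in HFD and 17 in HFD_HDCA, or 128, 112 and 11.7 CPM. ND and HFD differed little, with a log2 ratio of -0.18 (-0.64 to 0.26), while HFD_HDCA was 9.38-fold lower than HFD, a log2 ratio of -3.23 (-4.12 to -2.48). With the pooled threshold and in the other 18 alternative settings run, this ratio lay between -3.87 and -2.58. In the midlobular cells between the 2 ends Cdh1 stood at 111, 33.0 and 2.91 CPM, and in the pericentral class (the highest 20% of scores) at 10.1, 1.94 and 0 CPM.

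The share of periportal cells with a Cdh1 molecule was 34.1% in ND, 24.6% in HFD and 4.23% in HFD_HDCA. After every cell was thinned to 1000 UMIs, which left out 7, 3 and 4 shallower cells, the shares were 9.51, 9.44 and 1.22%. In cells that should lack the gene, those with at least 3 endothelial or Kupffer cell markers, it was 0, 6.67 and 0% of 73, 15 and 30 cells with median depths of 1057, 1010 and 1006.5 UMIs. So few cells of the other types set no firm background. Cdh1 was low in HFD_HDCA and still graded towards the portal end, and the label "periportal" rests mainly on the other genes there.

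Many other periportal genes were higher at the portal end on each diet. Of the 35 measured genes of a periportal list outside the score, 14 in ND, 20 in HFD and 18 in HFD_HDCA were at least 2-fold higher in the periportal than in the pericentral class, with median log2 ratios of 0.86, 1.26 and 1.05. Nrn1 was the 1 member at least 2-fold lower there, in HFD (182 against 559.97 CPM) and in HFD_HDCA (269 against 594 CPM). Over all 4844 genes of that contrast, 2.52% in ND, 5.16% in HFD and 2.81% in HFD_HDCA were at least 2-fold higher in periportal cells. Of 34 pericentral genes outside the score, 25, 30 and 29 were at least 2-fold lower in periportal cells, beside 5.35% in ND, 6.26% in HFD and 4.4% in HFD_HDCA of all genes. Both ends were picked by score genes that follow the same axis, so these contrasts are descriptions.

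Hsd17b13, a lipid droplet protein of portal hepatocytes, stood at 483 in ND, 631 in HFD and 661 CPM in HFD_HDCA, against 88.7, 27.2 and 45.4 CPM in the pericentral class. Gls2, the liver glutaminase that feeds ammonia to the urea cycle, stood at 766, 850.0 and 841 CPM, against 181, 40.8 and 81.9 CPM. At the portal end the diets differed by at most 1.37-fold for Hsd17b13 and 1.11-fold for Gls2, and at the central end both genes were highest in ND. However, the ND pericentral class began at a score of 1.64, against 8.83 in HFD and 9.11 in HFD_HDCA. Class make-up and diet thus cannot be told apart where pericentral values are compared with ND, here and in all later paragraphs. Ctsc, a lysosomal protease, was at 136, 159 and 288 CPM in periportal cells and at 28.2, 1.94 and 3.32 CPM in pericentral ones. Hsd17b6, a steroid and retinoid dehydrogenase, was at 231, 268 and 120.4 CPM against 34.3, 0 and 2.21 CPM.

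The 8 hepatocyte markers summed to 111353 in ND, 103897 in HFD and 114005 CPM in HFD_HDCA. The 12 Kupffer cell markers summed to 0, 5.02 and 4.82 CPM, with Clec4f, Vsig4 and Csf1r at 0 in every library. The 12 endothelial markers summed to 97.8, 104 and 77.7 CPM, with Stab2, Ptprb, Aqp1 and Oit3 at 0 throughout. All 6 neutrophil markers and all but 1 of the 10 lymphocyte markers were at 0 in every library. The 10 bile duct markers summed to 1357 in ND, 1295 in HFD and 1273 CPM in HFD_HDCA. Krt19, Krt7, Epcam, Cldn7 and Tspan8 of that list were at 0 throughout, and most of the sum was Clu, at 996 to 1048 CPM, with Tm4sf4 at 147 to 233 CPM and Sox9 at 51.9 to 151 CPM. The 5 erythroid markers summed to 96.7, 85.3 and 65.4 CPM, nearly all of it Alas2. Of the periportal cells 50 of 270 in ND, 12 of 236 in HFD and 51 of 331 in HFD_HDCA held at least 3 markers of cells other than hepatocytes, and every result was also computed without them. At least 3 endothelial or Kupffer markers were held by 1 periportal cell, in HFD.

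**Figure D2:**
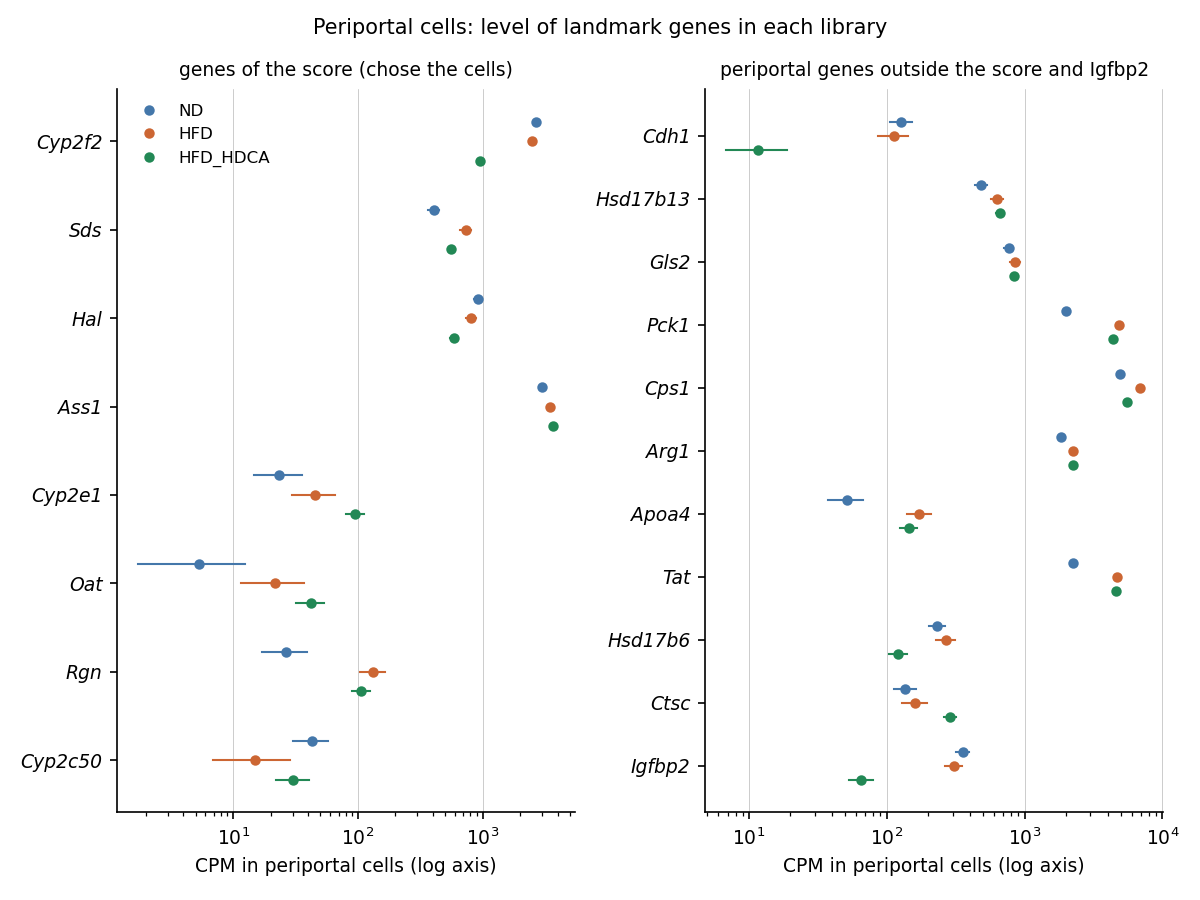
CPM in periportal cells (x axis, log scale) of the 8 score genes, left, and of 10 periportal genes outside the score with Igfbp2, right. Each point is 1 library (blue ND, orange HFD, green HFD_HDCA), and bars are exact 95% Poisson intervals. Cdh1 and Igfbp2 stand far to the left in HFD_HDCA alone, while Hsd17b13, Gls2, Cps1 and Arg1 lie close together.

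Measured genes were the 3469 with at least 100 periportal counts over the 3 libraries. Of them 125 stood at least 2-fold higher in HFD than in ND, or 3.6%, and 91 stood 2-fold lower or more, or 2.62%. Over all of them the median log2 ratio was 0.02. HFD cells had the lowest median depth, and the part of depth in single ratios was not tested beyond the thinned alternative.

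The highest HFD to ND ratios were those of genes of the circadian clock and its rhythmic output. In the list of clock and output genes, 9 of 14 measured members were at least 2-fold higher in HFD than in ND and 0 were lower, with a median log2 ratio of 1.36 (1 member passed the count minimum only through 1 library). The difference was not limited to the portal end, since the list's median in the pericentral class was 1.64. Rgs16, a brake on G protein signalling that is rhythmic in periportal hepatocytes, gave 7 counts in ND, 202 in HFD and 346 in HFD_HDCA, or 7.44, 338 and 238 CPM. Rgs16 was thus 42.5-fold higher in HFD than in ND, a log2 ratio of 5.41 (4.44 to 6.84), or 7.13 after thinning and 4.42 with a score of pericentral genes alone. A molecule of Rgs16 was found in 2.22, 50.4 and 56.2% of periportal cells, and in 0.760, 26.6 and 19.3% at 1000 UMIs, against 1.37, 13.3 and 0% of endothelial or Kupffer cells. Both high fat libraries lay far above ND.

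Lpin1, a phosphatidate phosphatase and coactivator with daily and fasting rhythms, stood at 61.7 in ND, 1146 in HFD and 645 CPM in HFD_HDCA. Its HFD to ND log2 ratio was 4.21 (3.83 to 4.63). Mfsd2a, a fasting-induced transporter of lysophospholipids, stood at 12.8, 256 and 255 CPM, a log2 ratio of 4.27 (3.48 to 5.31), or 2.84 after thinning to 1000 UMIs. Dbp and Tef, clock-driven transcription factors of the PAR bZIP family, had log2 ratios of 1.91 (1.13 to 2.78) and 1.73 (0.99 to 2.55). Noct, a rhythmic phosphatase of nicotinamide dinucleotides, stood at 67.0, 179 and 294 CPM. Clock itself was the exception, at 53.2, 28.4 and 28.9 CPM, with a ratio of -0.87 (-1.79 to -0.08). None of the 14 members differed 2-fold between HFD_HDCA and HFD, beside 1.73% of all genes higher and 1.59% lower. The list's median there was 0.01. The time of day at which each liver was taken is not given, so diet and time cannot be told apart for these genes.

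Coq10b, a coenzyme Q binding protein, was at 30.8 in ND, 223 in HFD and 169.9 CPM in HFD_HDCA, with an HFD to ND log2 ratio of 2.83 (2.26 to 3.48), or 1.79 after thinning. The Coq10b promoter is shown because it was the sole promoter of the list to hold both motifs searched. The 250 bases before its start, at chr1:55052520-55052769 on the plus strand of GRCm38.p6 (RefSeq), read as follows, with the E-box and the D-box, letters bound by clock and PAR bZIP factors, in capitals.
Coq10b: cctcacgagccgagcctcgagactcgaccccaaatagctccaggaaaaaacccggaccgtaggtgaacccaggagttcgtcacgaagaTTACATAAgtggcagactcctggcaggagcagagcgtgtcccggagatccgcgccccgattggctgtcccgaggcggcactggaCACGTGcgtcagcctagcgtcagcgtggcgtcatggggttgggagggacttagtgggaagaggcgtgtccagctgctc
The E-box, CACGTG, began at base -78 from the start, and the D-box, TTATGTAA read on the opposite strand, at base -162. Both strands were searched. Of the 14 measured list members 12 had a promoter in the table, and 2 of these, Coq10b and Tef, held the E-box, beside 6.86% of 27018 genes. Coq10b alone held the D-box, beside 0.977% of all genes. A match describes the letters and not the binding of a factor.

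Some cholesterol genes, of synthesis and uptake, stood higher in periportal cells on the high fat diets than on normal diet. Of 21 measured members of the list, 7 were at least 2-fold higher in HFD than in ND, beside 3.6% of all genes, 3 were higher in HFD_HDCA than in HFD, beside 1.73%, and 15 were higher in HFD_HDCA than in ND, beside 3.66%. None was 2-fold lower in any of these comparisons. The medians were 0.74, 0.68 and 1.48, and 20 of 21 members had a log2 ratio above 0 for HFD_HDCA against HFD. In the pericentral class the list's medians were similar, at 0.62, 0.73 and 1.33. However, 7 of the 21 passed the count minimum only through 1 library and so had to differ. The comparisons with HFD share that library.

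Sqle, the squalene epoxidase, stood at 12.8, 50.2 and 125 CPM and was measured only through HFD_HDCA. Its HFD_HDCA to HFD log2 ratio was 1.30 (0.76 to 1.93), and 0.78 with a score of pericentral genes alone. Msmo1, a sterol demethylase, stood at 65.9, 196 and 319.9 CPM, Idi1, the isopentenyl diphosphate isomerase, at 84.0, 186 and 317 CPM, and Hsd17b7, which reduces a sterol ketone, at 36.1, 112 and 180.2 CPM. Levels of these genes were ordered ND, HFD, HFD_HDCA. Insig1, which holds the SREBP activator in the endoplasmic reticulum and is itself its target, followed the same order at 360.4, 827 and 1121 CPM.

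Hmgcs1, an early synthase of the pathway, stood at 109 in ND, 169 in HFD and 289 CPM in HFD_HDCA, with an HFD_HDCA to HFD log2 ratio of 0.77 (0.46 to 1.10). Its promoter is shown because the core of the sterol regulatory element, the SREBP binding site, was found in it. The 250 bases before its start, chr13:119690101-119690350 on the plus strand of GRCm38.p6 (RefSeq), carry the core CACCCCAC in capitals, from base -136.
Hmgcs1: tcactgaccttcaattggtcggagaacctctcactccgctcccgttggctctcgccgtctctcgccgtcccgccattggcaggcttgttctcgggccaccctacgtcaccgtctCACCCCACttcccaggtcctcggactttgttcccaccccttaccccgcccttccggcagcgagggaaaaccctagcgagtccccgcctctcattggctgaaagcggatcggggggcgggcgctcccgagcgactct
On either strand this core was in 2 of the 14 list members with a promoter in the table, Hmgcs1 and Acat2, and in 2.98% of 27018 genes.

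Some gluconeogenic and insulin-responsive genes were higher at the portal end on high fat diet. Of 23 measured genes of that list 6 were at least 2-fold higher in HFD than in ND, beside 3.6% of all genes, and 0 lower, with a median of 0.54. In HFD_HDCA against ND 4 were higher, beside 3.66%, and 1 was lower. Of the 23, 2 passed the count minimum only through 1 library. In the pericentral class 5 of 21 members were higher than ND in HFD and 4 in HFD_HDCA. The share over all genes was not taken for that class. The list's medians there were -0.02 for HFD and 0.27 for HFD_HDCA against ND, beside -0.03 and 0.01 over all genes. Pck1, the gatekeeper enzyme of gluconeogenesis, stood at 1999.7 in ND, 4819 in HFD and 4377 CPM in HFD_HDCA, a log2 ratio of 1.27 (1.18 to 1.35) for HFD against ND. Ppargc1a, the coactivator that drives gluconeogenic genes, stood at 21.3, 73.6 and 48.8 CPM, with an HFD to ND ratio of 1.77 in periportal (1.03 after thinning) and -0.33 in pericentral cells. Igfbp1, a secreted factor that insulin represses, was highest in HFD alone, at 260.5, 775 and 332 CPM.

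Igfbp2, a growth factor binding protein, was lower in HFD_HDCA than on both other diets. It stood at 355 in ND, 306 in HFD and 65.4 CPM in HFD_HDCA, a log2 ratio of -2.22 (-2.60 to -1.86) for HFD_HDCA against HFD, and -2.05 in the pericentral class. Igfbp1 and Igfbp2 were the 2 of 23 list members at least 2-fold lower in HFD_HDCA than in HFD, beside 1.59% of all measured genes.

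Urea cycle genes differed little between diets. Of 15 measured members none was 2-fold higher and 1 was lower in HFD than in ND, with a median log2 ratio of 0.35 and 13 above 0. Cps1, which makes carbamoyl phosphate from ammonia, stood at 4946 in ND, 6912 in HFD and 5572 CPM in HFD_HDCA. Arg1, which splits arginine to urea, stood at 1823, 2244 and 2238 CPM. Slc7a2, an arginine transporter, stood at 532, 984 and 1013 CPM. Nags, whose product activates Cps1, was the 1 member at least 2-fold lower, with 48, 11 and 56 counts and a log2 ratio of -1.42 (-2.57 to -0.51). With the pooled threshold the Nags ratio was -0.91, and after thinning -0.83, both below 2-fold. Among 48 genes of amino acid catabolism, 2 were at least 2-fold higher and 1 lower in HFD, shares near the 3.6 and 2.62% of all genes. Bhmt, the betaine methyltransferase of the methionine cycle, stood at 1326, 1692 and 546 CPM.

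Fatty acid synthesis genes at the portal end were split. Of 22 measured lipogenic genes 5 were at least 2-fold higher and 1 lower in HFD than in ND, beside 3.6 and 2.62% of all genes, with a median of 0.50 in periportal and of -0.37 in pericentral cells. Among the 22, 1 passed the count minimum only through 1 library. Thrsp, a nutrient-responsive lipogenic factor, stood at 221 in ND, 1001 in HFD and 825 CPM in HFD_HDCA. Fads2, a fatty acid desaturase, stood at 158, 696 and 595 CPM. Scd1, the stearoyl desaturase, ran against them at 6789, 3808 and 2905 CPM. Angptl8, an insulin-induced inhibitor of lipoprotein lipase, was 14.7-fold lower in HFD than in ND, at 578, 38.5 and 141 CPM, with a log2 ratio of -3.88 (-4.58 to -3.31). In HFD_HDCA Angptl8 was 3.6-fold above HFD and still below ND.

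Fatty acid oxidation genes differed by less than 2-fold. None of the 31 measured members was 2-fold higher or lower in any comparison, beside 1.59 to 3.66% of all genes in each direction. For so few members a count of 0 is near those shares. The medians were 0.17, -0.02 and 0.14 for HFD against ND, HFD_HDCA against HFD and HFD_HDCA against ND. Cpt1a, which admits fatty acids to mitochondria, came closest, at 154 in ND, 299.5 in HFD and 281 CPM in HFD_HDCA. Of 24 PPARalpha target genes 3 were at least 2-fold higher and 1 was lower in HFD_HDCA than in HFD, beside 1.73 and 1.59% of all genes, with a median of -0.12. Among the 24, 1 passed the count minimum only through 1 library. G0s2, an inhibitor of the lipase that opens lipid droplets, stood at 158, 23.4 and 146 CPM, so HFD alone was low. Cyp4a14, a fatty acid omega-hydroxylase, stood at 191, 117 and 385 CPM, with an HFD_HDCA to ND log2 ratio of 1.01, or 0.99 with the pooled threshold. Ppara, the receptor, stood at 41.5, 90.4 and 57.1 CPM.

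Some drug-metabolising genes were lower on high fat diet, with Cyp3a11 the lowest by far. Of 26 measured xenobiotic genes 8 were at least 2-fold lower in HFD than in ND, beside 2.62% of all genes, and 2 higher, beside 3.6%. The median was -0.19 in periportal and 0.26 in pericentral cells. Cyp3a11, the main inducible Cyp3a enzyme of mouse liver (chromosome 5, 145854426 to 145879964, minus strand), gave 3160 counts in ND, 2 in HFD and 9 in HFD_HDCA. These were 3359 CPM, 3.35 and 6.19. The HFD to ND log2 ratio was -9.65 (-13.02 to -8.12), and in the pericentral class, at 6064, 235 and 391 CPM, it was -4.68. In ND 94.8% of periportal cells held a Cyp3a11 molecule, beside 84.9% of endothelial or Kupffer cells, so the ND share is not read as expression in single cells. In HFD and HFD_HDCA these periportal shares were 0.847 and 2.42%, while 22.5 and 39.3% of pericentral cells held a molecule. The gene passed the count minimum only through ND.

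Gstm1, a glutathione transferase, stood at 1827 in ND, 346 in HFD and 569 CPM in HFD_HDCA. Gsta2, which passed the count minimum only through ND, stood at 201, 40.2 and 17.2 CPM. Cyp3a25 stood at 1178, 477 and 288 CPM and Ces2a, a carboxylesterase, at 251, 73.6 and 26.1 CPM. All 4 were lower in both high fat libraries than in ND. Alas1, the first enzyme of haem synthesis, ran the other way at 47.8, 274 and 166 CPM, and Por, which hands electrons to P450 enzymes, at 46.8, 112 and 82.6 CPM. Near-identical copies of Cyp3a, Gsta, Gstm and Ces genes may share reads, so values of single copies are uncertain.

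Against HFD, periportal cells of HFD_HDCA had 60 of 3469 genes at least 2-fold higher, or 1.73%, and 55 that were 2-fold lower or more, or 1.59%, with a median log2 ratio of 0.02 over all of them. The strongest differences were in genes that male mouse livers express more than female ones. Of 27 measured male-biased genes 15 were at least 2-fold lower in HFD_HDCA than in HFD and 0 higher, with a median of -1.27. Against ND 14 were lower, beside 2.25% of all genes, and 1 was higher. However, 3 of the 27 passed the count minimum only through 1 library and so had to differ. In the pericentral class the list's HFD_HDCA to HFD median was -1.34, beside 0.04 over all genes there. Of 24 female-biased genes only Cyp4a14 was measured in periportal cells, so the counterpart cannot be judged there at this depth. In the pericentral class 2 were measured, and both were at least 2-fold higher in HFD_HDCA than in HFD, with a median of 3.58. Against ND 1 of the 2 was. No share over all genes was taken for that class, and so few genes do not stand for the list.

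Selenbp2, a selenium binding protein, gave 310, 191 and 7 counts, or 329.6 in ND, 319.6 in HFD and 4.82 CPM in HFD_HDCA. It was 62.1-fold lower in HFD_HDCA than in HFD, a log2 ratio of -5.96 (-7.39 to -4.98), and -8.05 in the pericentral class. With the pooled threshold the Selenbp2 ratio was -6.81, and after thinning -7.47. Hsd3b5, a male-biased steroid dehydrogenase, gave 90, 33 and 3 counts, a log2 ratio of -4.54 (-7.09 to -3.07). Cyp4a12b, a male-biased omega-hydroxylase, gave 140, 35 and 0 counts, which makes it at least 28.4-fold lower in HFD_HDCA than in HFD when 0 is read as 3 counts over the class. Only ND and HFD held these genes at clear levels. Hsd3b5 and Cyp4a12b passed the count minimum only through ND and so had to differ between libraries.

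Major urinary protein genes were high in HFD alone. Mup11 gave 207 counts in ND, 1293 in HFD and 59 in HFD_HDCA, or 220.1, 2163 and 40.6 CPM. Its log2 ratio was 3.29 (3.08 to 3.52) for HFD against ND and -5.72 (-6.14 to -5.36) for HFD_HDCA against HFD. Mup7 followed at 209, 1091 and 22.01 CPM and Mup1 at 89.3, 305 and 33.0 CPM. Mup21 did not follow, at 189, 443 and 413 CPM. These genes are near-identical copies and single values are uncertain. A Mup11 molecule was found in 32.9, 86.7 and 50% of endothelial or Kupffer cells, beside 36.3, 86.4 and 15.7% of periportal cells, so the shares of cells are not read as expression, and the part of free RNA in the summed levels was not tested.

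Bcl6, a regulator of sex-biased liver expression and a repressor favoured by the male growth hormone pattern, stood at 129 in ND, 28.4 in HFD and 13.1 CPM in HFD_HDCA, with 121, 17 and 19 counts. It passed the count minimum only through ND. Egfr, a growth factor receptor with male bias, stood at 405, 825 and 342 CPM, an HFD to ND log2 ratio of 1.03 that was 0.93 with the pooled threshold. The labels gave no sex for the mice.

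Among bile acid synthesis genes Cyp2c70, Cyp27a1 and Cyp7b1 were lower at the portal end with hyodeoxycholic acid. Of 16 measured members these 3 were at least 2-fold lower in HFD_HDCA than in HFD, beside 1.59% of all genes, and 1 was higher, beside 1.73%. Their median was -0.40. In the pericentral class 4 of 17 were lower and 1 higher, without a share over all genes of that class. The list's median there was -0.43, beside 0.04 over all genes. Cyp2c70, which makes muricholic acids in mice, stood at 596 in ND, 460.1 in HFD and 79.1 CPM in HFD_HDCA, a log2 ratio of -2.54 (-2.87 to -2.22). Cyp27a1, which opens the alternative pathway, stood at 101, 87.0 and 17.9 CPM, a ratio of -2.27 (-3.02 to -1.58) in periportal and -0.43 in pericentral cells. Cyp7b1, the next enzyme of that pathway, stood at 220.1, 191 and 72.9 CPM. Cyp8b1, which makes cholic acid, stood at 121, 157 and 124 CPM.

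Cyp7a1, the rate-limiting enzyme of the classical pathway, lay at the edge of detection with 2, 9 and 0 counts in periportal cells and was not measured there. In the pericentral class it stood at 125, 401 and 33.2 CPM. Csad, which makes taurine for bile acid conjugation, stood at 172 in ND, 20.1 in HFD and 53.0 CPM in HFD_HDCA, and was the 1 member higher in HFD_HDCA than in HFD. Of 16 measured genes of bile acid transport and receptors 5 were at least 2-fold lower in HFD_HDCA than in ND, beside 2.25% of all genes, with a median of -0.56 (0.11 with a count minimum of 300). Among the 16, 1 passed the count minimum only through 1 library. In the pericentral class 0 of 15 were lower, with a median of 0.10. No share over all genes was taken for that class, so no zone difference is read. Abcb11, the bile salt export pump, stood at 222, 182 and 102 CPM, Nr0b2, a repressor induced by bile acids, at 111, 85.3 and 51.6 CPM, and Slco1a1, a sinusoidal uptake carrier, at 395, 525 and 195 CPM. With the pooled threshold the Nr0b2 ratio of -1.10 was -0.89, and after thinning -0.47, both below 2-fold.

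**Figure D3:**
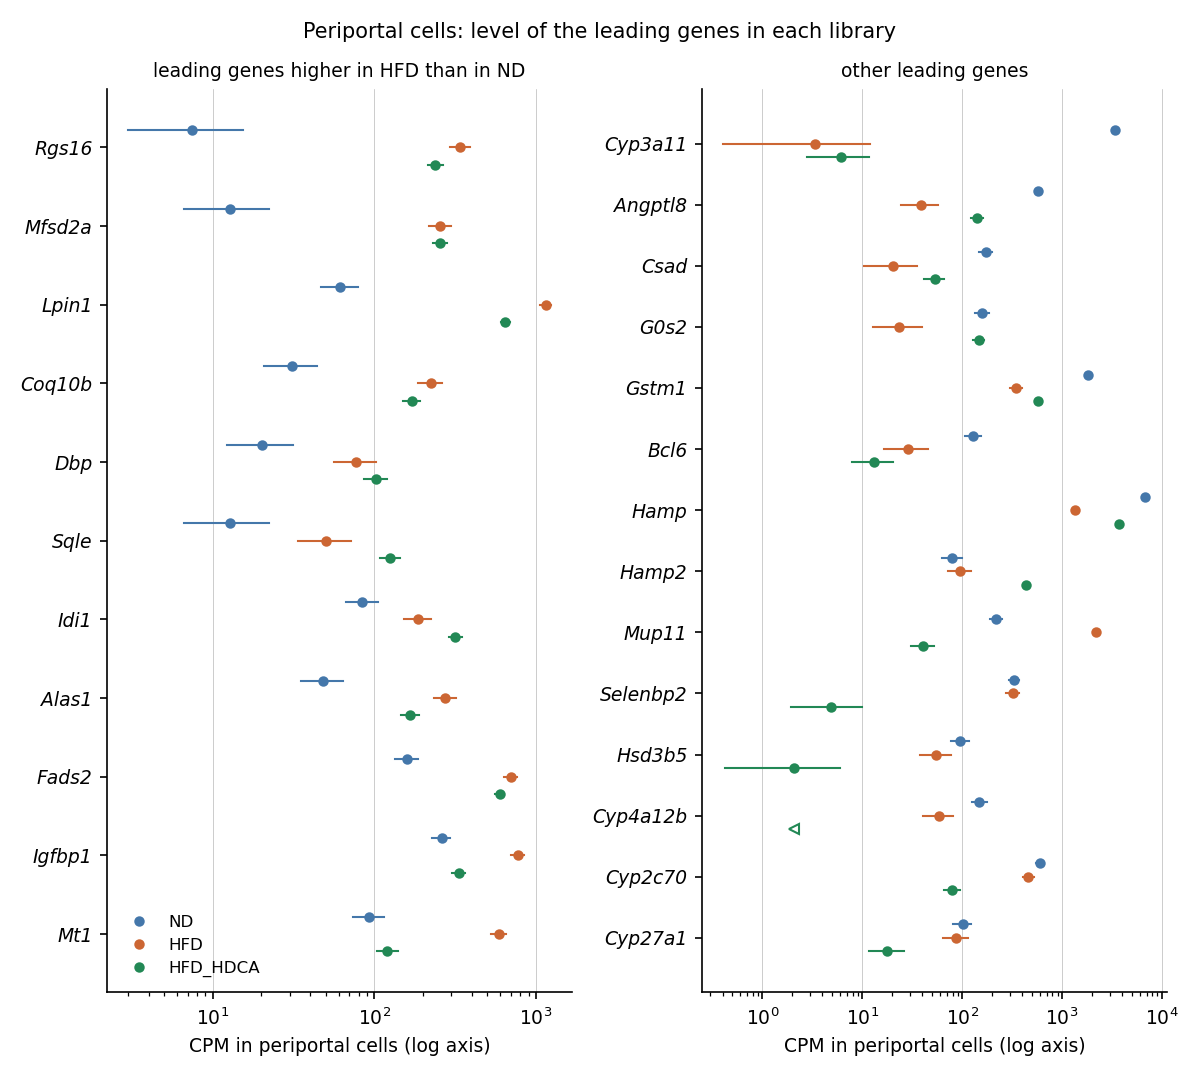
CPM in periportal cells (x axis, log scale) of leading genes, with 1 point per library (blue ND, orange HFD, green HFD_HDCA) and exact 95% Poisson intervals. The open triangle is Cyp4a12b in HFD_HDCA, where 0 counts were found, drawn at the level of 3 counts. On the left every gene is lowest in ND, and on the right Mup11, Selenbp2, Hsd3b5 and Cyp2c70 are lowest in HFD_HDCA while Hamp, Angptl8 and G0s2 are lowest in HFD.

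Hamp differed between all 3 libraries, and Hamp2 mainly between HFD_HDCA and the others. Hamp, which encodes hepcidin, the hormone that limits iron release into blood, gave 6301, 805 and 5349 counts, or 6699 in ND, 1347 in HFD and 3679.6 CPM in HFD_HDCA. The HFD to ND log2 ratio was -2.31 (-2.42 to -2.21) and the HFD_HDCA to HFD ratio 1.45 (1.34 to 1.56). Hamp2, its neighbour on chromosome 7, stood at 79.7, 95.4 and 438 CPM. Its ratio was 0.26 (-0.26 to 0.77) for HFD against ND and 2.19 (1.81 to 2.61) for HFD_HDCA against HFD, or 1.40 with the pooled threshold. The HFD_HDCA to ND ratio of Hamp was -0.86 (-0.92 to -0.81), so HFD_HDCA lay between the other diets for Hamp, and Hamp2 was high in HFD_HDCA alone. The paralogs are similar and reads may be shared between them. Among 14 measured iron and metal genes, 2 were at least 2-fold higher and 2 lower in HFD than in ND, beside 3.6 and 2.62% of all genes.

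Mt1, a metallothionein that binds zinc and copper, stood at 92.5 in ND, 587 in HFD and 120.4 CPM in HFD_HDCA. Its HFD to ND log2 ratio was 2.66 (2.32 to 3.02) at the portal end and -0.50 at the central end. In the 10% of cells with the lowest scores the portal ratio was 3.81. The limit given above for the ND pericentral class applies to the central ratio. A molecule of Mt1 was found in 42.5, 26.7 and 36.7% of endothelial or Kupffer cells, beside 22.6, 59.3 and 29.0% of periportal cells.

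A few junction and portal tract genes were at least 2-fold lower in HFD than in ND, while Cdh1 was that low only in HFD_HDCA. Of 11 measured portal tract and junction genes, Cdh1 among them, 3 were at least 2-fold lower in HFD than in ND, beside 2.62% of all genes, and 2 were lower in HFD_HDCA than in HFD, beside 1.59%, with 0 higher in either. Sox9, Cldn1 and Cldn3 were those lower in HFD, and Cdh1 and Cldn1 those lower in HFD_HDCA than in HFD. Among the 11, 1 passed the count minimum only through 1 library. Cldn1, a tight junction protein, stood at 137 in ND, 61.9 in HFD and 29.6 CPM in HFD_HDCA, with 129, 37 and 43 counts. Its ratios were not firm. With cells of at least 1000 genes the HFD to ND ratio of Cldn1 was -0.84, and with cells of at least 200 genes its HFD_HDCA to HFD ratio was -0.58, both below 2-fold. Cldn3, another tight junction gene, had an HFD to ND ratio of -1.01. That ratio was -0.58 with cells of at least 1000 genes and -0.25 after thinning. Sox9, a transcription factor of ducts and of hepatocytes beside them, stood at 151, 51.9 and 66.7 CPM. The duct keratins at 0 in all libraries are given above.

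Genes of protein synthesis and respiration differed little, but mostly in 1 direction. Of 80 measured cytosolic ribosomal protein genes 79 had a log2 ratio below 0 for HFD against ND, with a median of -0.43, and 78 had one above 0 for HFD_HDCA against HFD, with a median of 0.46. Of 73 nuclear genes of oxidative phosphorylation 61 were below 0 for HFD against ND, with a median of -0.30. Only 1 gene of each list was at least 2-fold lower in HFD than in ND, beside 2.62% of all genes, and 0 were higher, beside 3.6%. None differed 2-fold in HFD_HDCA against HFD, beside 1.73% higher and 1.59% lower. The periportal HFD cells had the fewest UMIs, and the HFD to ND median of the ribosomal list was -0.38 after thinning to 1000 UMIs. The HFD_HDCA to ND median of that list was -0.01, and HFD_HDCA cells had more UMIs than ND cells. In the pericentral class, with median depths of 1414 UMIs in ND and 2168.5 in HFD, its HFD to ND median was -0.46. The part of depth was not tested further.

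**Figure D4:**
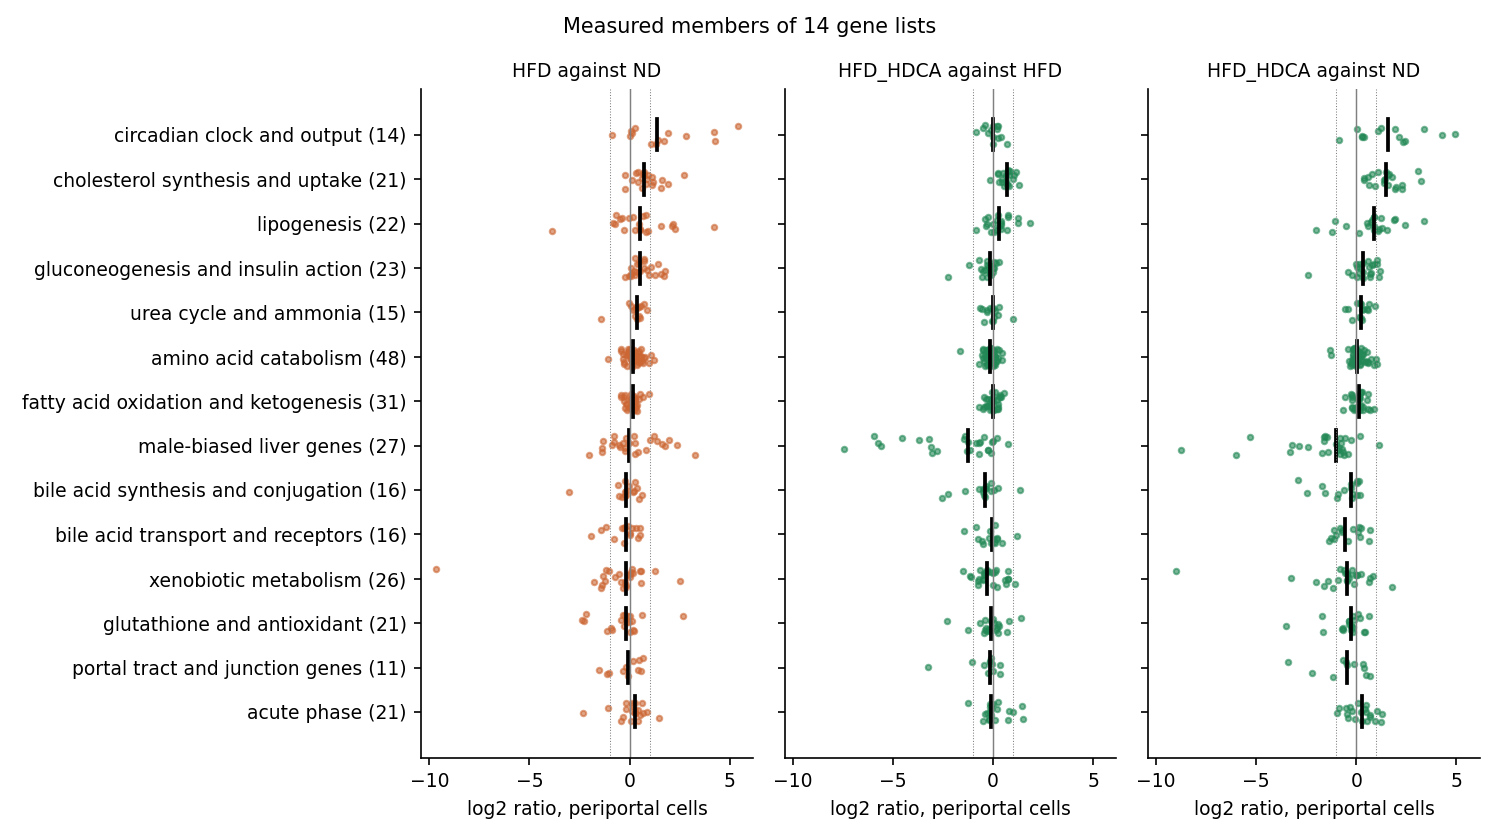
Log2 ratios (x axis) in periportal cells of the measured members of 14 gene lists, with the number measured in brackets, for each pair of diets. Each point is a gene, the thick bar is the list's median, and dotted lines mark 2-fold. Clock and cholesterol genes lie to the right in both comparisons with ND (medians 1.36 and 0.74 in HFD), and male-biased genes to the left in both comparisons of HFD_HDCA.

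Of 2546 genes measured at both ends of the score, the HFD to ND log2 ratio was higher at the portal end by at least 1 for 78 genes, or 3.06%, and lower for 45, or 1.77%. For HFD_HDCA against HFD 38 genes, or 1.49%, were higher and 36, or 1.41%, lower, and for HFD_HDCA against ND 51, or 2%, and 34, or 1.34%. These differences depend on the pericentral class as well, which in ND held more portal signal (Cyp2f2 at 363 CPM, against 19.4 and 6.64 in the others) and more endothelial and Kupffer marker counts (463 and 239.8 CPM). Pooled thresholds for both ends left 76 pericentral ND cells. Values with them are given beside each gene. Without cells holding endothelial or Kupffer markers the differences given below were -4.94 for Cyp3a11, 2.10 for Acly, 2.37 for Rgs16 and 2.28 for Gls2, and for HFD_HDCA against HFD 2.80 for Serpina1e, 1.88 for Hamp, -4.29 for Mup11 and -1.93 for Cyp27a1.

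Cyp3a11 had a periportal minus pericentral difference in the HFD to ND log2 ratio of -4.97, or -4.62 with pooled thresholds. Its size is uncertain, since the periportal ratio had an interval of -13.02 to -8.12 and rested on very few HFD counts. The gene also passed the periportal count minimum only through ND, and the part of free RNA in its ND level was not tested. Acly, which makes acetyl-CoA for fat and sterol synthesis, had ratios of 0.83 at the portal and -1.31 at the central end, a difference of 2.14, or 1.82 with pooled thresholds. Rgs16 had a difference of 2.23, or 0.62 with pooled thresholds. Gls2 had a difference of 2.27 that turned to -0.81 with pooled thresholds, so no zone-dependent diet difference is read for it.

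For HFD_HDCA against HFD, Serpina1e, an antitrypsin paralog, had ratios of 0.02 at the portal and -2.79 at the central end, a difference of 2.81, or 2.69 with pooled thresholds. It stood at 8485 in ND, 4991 in HFD and 5052 CPM in HFD_HDCA in periportal cells. Hamp had ratios of 1.45 and -0.35, a difference of 1.798, or 1.62 with pooled thresholds. Mup11 had ratios of -5.72 and -1.43, and Cyp27a1 of -2.27 and -0.43, differences of -4.29 and -1.84, or -4.73 and -2.16 with pooled thresholds. Mup11 and Cyp27a1 were thus lower by more at the portal end, and Hamp was higher with hyodeoxycholic acid there but not at the central end.

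**Figure D5:**
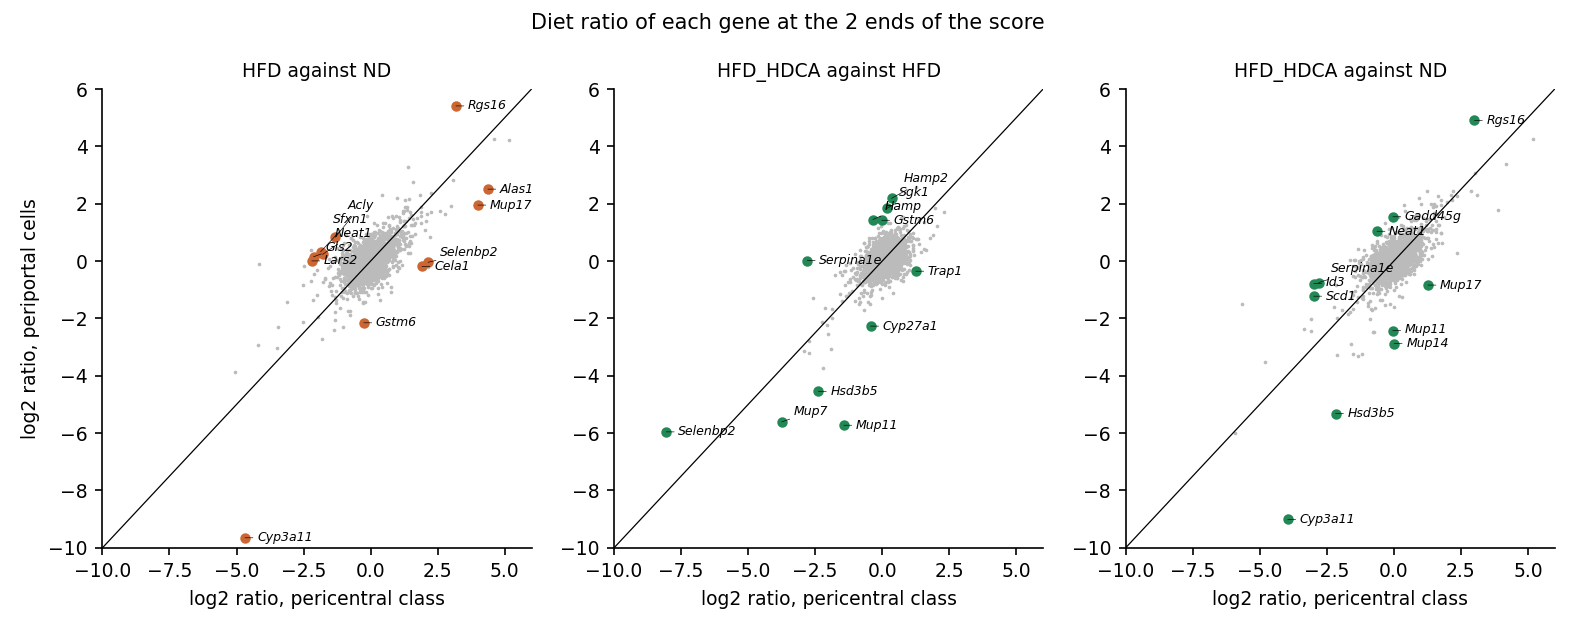
Log2 ratio of each pair of diets in periportal cells (y axis) against the same ratio in the pericentral class (x axis), for genes measured at both ends with counts above 0 in both libraries. Grey points are all such genes, coloured points the 6 highest and 6 lowest differences, and the line marks equal ratios. Cyp3a11, with very few periportal counts in HFD, lies far below the line at -9.65, and Serpina1e lies above it at 0.02 against -2.79.

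The class was also split at the median score of each library. Between the lower-scored and the higher-scored cells, 118 each in HFD, Lpin1 stood at 1092 and 1205 CPM and Rgs16 at 374 and 299 CPM. Hamp stood at 1376 and 1316 CPM. In HFD_HDCA, Mup11 stood at 28.6 CPM in the lower-scored and 54.1 in the higher-scored cells, both far below the 1888 and 2461 CPM of HFD. Cdh1 stood at 10.4 and 13.2 CPM in HFD_HDCA and at 145 and 76.6 CPM in HFD, so Cdh1 in HFD was higher in the lower-scored cells, while both groups of HFD_HDCA were low. These groups were cut from the score that chose the cells and are a description.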

How the data were processed

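The deposited matrices held UMI counts per gene and barcode. Per the file headers Cell Ranger 5.0.0 wrote them, with genome build mm10 per the submitters' processing notes. How barcodes were chosen is not given in the sources used here. All 32285 features were read, of which 32158 had their identifier in GENCODE M21 (GRCm38), which gave positions. From the counts, periportal, midlobular and pericentral classes (lowest 20%, middle and highest 20% of scores per library) were summed and scaled to counts per 1000000 nuclear-encoded counts. Log2 ratios used counts plus 0.5, with 95% exact conditional binomial intervals. CPM intervals were exact Poisson and cell shares exact binomial (Clopper-Pearson). Measured genes had at least 100 summed counts, leaving out mitochondrial and Y-linked genes and Xist, and called means at least 2-fold. Where a class held 0 counts, 3 counts set the bound. With 1 library per diet no test was run. Scripts were checked on simulated data and used Python 3.11.15, numpy 2.4.6, pandas 2.3.3 and scipy 1.17.1.

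Named genes were, per comparison, the 10 highest and 10 lowest ratios at 50 CPM or more in the higher library, 4 members at most of every list by size of ratio, the 6 highest and 6 lowest differences between classes, and fixed landmarks. The score genes, Clock, Tef, Hmgcs1, Idi1, Insig1, Mup21, Nrn1, Prox1 and the markers of other cells lay outside this rule and were chosen after their values were seen. Values of some single genes chosen this way are left out of the text. The class, the 29 gene lists and the markers were chosen with earlier results of these data known. Alternatives changed size factors, count minimum, score, threshold, filters and depth, and those added after seeing the data left out cells with endothelial or Kupffer markers or pooled the thresholds of both ends.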

Additional observations from a re-analysis of the deposited data

How the results depend on the processing

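Of 204 named gene ratios of at least 2-fold, 3876 values under 19 alternatives were computed, of which 3874 kept the direction and 3673 stayed at least 2-fold. The exceptions to the direction were Nags in HFD_HDCA against HFD, which was -0.39 after thinning to 1000 UMIs, and Cyp7a1, not measured, at 0.92 in HFD_HDCA against ND without the deepest 5% of cells. Much of this agreement was fixed in advance. Changed count minimums, and keeping only genes not higher in non-hepatocyte cells, leave each ratio as it was. Other size factors shift all ratios of a comparison by the same amount. Many of the ratios were also chosen for their size in these same cells.

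Counts of genes moved by over 1.5 times where the number of genes measured changed. In the order HFD against ND, HFD_HDCA against HFD and HFD_HDCA against ND, a count minimum of 20 (7754 genes) gave 427, 447 and 407 higher and 578, 292 and 392 lower. A minimum of 300 (1375 genes) gave 51, 15 and 57 higher and 26, 30 and 32 lower, and thinning (931 genes) 45, 12 and 38 higher and 16, 22 and 30 lower. With the lowest 10% of scores (2059 genes) 52 genes were lower in HFD than in ND, 38 were higher in HFD_HDCA than in HFD, and 83 were higher and 51 lower in HFD_HDCA than in ND. With cells of at least 1000 genes (2184 genes) 58 were lower in HFD than in ND and 32 higher in HFD_HDCA than in HFD. Fewer or more genes passed the minimum in each of these settings.

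No paired analysis was possible because each diet had 1 library. Animal, batch and diet cannot be told apart. Depth limits low genes: 3 counts correspond to 3.19 in ND, 5.02 in HFD and 2.06 CPM in HFD_HDCA, so Cyp7a1 and most female-biased genes could not be compared.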

Other observations

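A few genes of cell stress and early response were higher in periportal cells on high fat diet. Of 20 measured genes of endoplasmic reticulum stress 17 had a log2 ratio above 0 for HFD against ND, with a median of 0.23 and 2 members at least 2-fold higher, beside 3.6% of all genes. Herpud1, which helps clear misfolded proteins, stood at 526 in ND, 1625 in HFD and 1263 CPM in HFD_HDCA, and Dnajb9, a chaperone, at 119, 253 and 221 CPM. Of 18 measured early response and heat shock genes 3 were at least 2-fold higher and 1 lower in HFD than in ND, beside 3.6 and 2.62% of all genes. The list was mixed, with 12 log2 ratios above 0 and 6 below. Among the 18, 1 passed the count minimum only through 1 library. Fos, an early response factor that tissue dissociation also raises, stood at 226, 641 and 937 CPM. Klf10 went the other way, with an HFD to ND log2 ratio of -1.46. All 3 libraries went through perfusion, and the part of cell isolation was not tested.

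Secreted acute phase proteins were mixed. Of 21 measured members 1 was at least 2-fold higher and 2 lower in HFD than in ND, beside 3.6 and 2.62% of all genes, and 2 were higher and 1 lower in HFD_HDCA than in HFD, beside 1.73 and 1.59%. Among the 21, 1 passed the count minimum only through 1 library. Serpina3k, a plasma protease inhibitor, stood at 8510.1 in ND, 10148 in HFD and 4312 CPM in HFD_HDCA, while Itih4, another plasma inhibitor, stood at 553, 666 and 1141 CPM. Among 16 liver transcription factors Cebpb stood at 248, 818 and 504 CPM, Prox1 at 343, 166 and 189.9 CPM, and Esr1, the oestrogen receptor, at 19.1, 68.6 and 56.4 CPM. Esr1 was at 10.1, 0 and 2.21 CPM in the pericentral class. Hnf4a, the main regulator of hepatocyte identity and chosen after its values were seen, stood at 210.5, 224 and 231 CPM. Of 3 measured interferon response genes and 9 of antigen presentation none differed 2-fold, beside 1.59 to 3.66% of all genes in each direction. So few genes are near those shares.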
